A study of Mus musculus with 4 samples.

Results

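The genes described here are 40 listed members of the antioxidant defence: NRF2 and its regulators, the glutathione and thioredoxin systems, the peroxiredoxins, superoxide dismutases and catalase, and, as a source of oxidants, the phagocyte NADPH oxidase. They were chosen by symbol, with earlier results of these data known, and 38 of the 40 are among the 13614 genes of the deposited count table. Me1 and Gsta4 were not analysed here. RNA was sequenced in 2 libraries of Prl2 knockout cells (genotype Prl2-/-) and 2 libraries of wild type cells (Prl2+/+), and Prl2 is an alias of Ptp4a2, the gene of the phosphatase PRL2. Both genotypes were fetal liver cells taken between embryonic days 14.5 and 16.5, infected with an MSCV retrovirus that carries the leukaemia fusion gene MLL-AF9 and a GFP marker, and sorted for GFP, so both carry the oncogene. The study calls the sorted cells leukaemia-initiating cells and compares the genotypes for pathways that differ in the absence of PRL2. The labels give neither the deleted part of the gene, nor the strain, nor whether replicates came from separate embryos or cultures. The p-values thus reflect the spread between libraries, which in the knockout may be technical. The wild type libraries differ in the sex-linked genes Xist and Ddx3y, with counts given below, and so are not repeats of 1 RNA sample.

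Reactive oxygen species such as superoxide and hydrogen peroxide are by-products of respiration and are made on purpose by phagocytes. The transcription factor NRF2 is held at a low level by KEAP1, which hands it to a ubiquitin ligase. When KEAP1 is oxidised, NRF2 enters the nucleus and binds antioxidant response elements at genes of glutathione synthesis, the thioredoxin system and detoxification, where the repressor BACH1 competes with it. Glutathione peroxidases and peroxiredoxins then remove peroxides, and glutathione reductase and the thioredoxin reductases return their reducing partners to use with NADPH. In myeloid leukaemia, these systems are known for setting how much oxidant a cell tolerates.

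The sequence that NRF2 and BACH1 recognise is shown for the members whose promoter holds it. The motif TGACNNNGC was searched on both strands of RefSeq promoters (GRCm38.p6) running from 250 bases before to 50 bases after each gene's start. A promoter was found for 35 of the 40 members. At least 1 match lay in 9 of these 35 genes (25.7%), against 3781 of all 27025 genes with a promoter (14.0%). The promoters of the members were also richer in G and C, with a median of 59.5% against 52.7% for all promoters. The part of base content in these shares was not tested, and a match is a description of the letters and not evidence of binding. One of the 9 is Me1, whose RNA was not analysed here. The windows of the other 8 follow, 5′ to 3′ on the gene's strand, with the match, or its reverse complement, in capitals.
Gclm, chr3:122245413-122245441, + strand: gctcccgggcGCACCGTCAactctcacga
Gstm5, chr3:107895802-107895830, + strand: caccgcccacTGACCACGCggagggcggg
Mgst1, chr6:138140461-138140489, + strand: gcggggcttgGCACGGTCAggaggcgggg
Nfe2l2, chr2:75704885-75704913, - strand: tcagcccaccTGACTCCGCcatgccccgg
Prdx1, chr4:116685456-116685484, + strand: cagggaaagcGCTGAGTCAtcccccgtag
Sod1, chr16:90220696-90220724, + strand: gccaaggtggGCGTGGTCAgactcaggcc
Srxn1, chr2:152105542-152105570, + strand: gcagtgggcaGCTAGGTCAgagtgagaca
Txnrd1, chr10:82859104-82859132, + strand: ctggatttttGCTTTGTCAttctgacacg
Each match has 10 bases of flank on either side, and the window coordinates are in GRCm38.p6. No match in the other promoters says only that these letters are not in those windows.

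A second feature is shared by part of the list. 6 members are selenoproteins, in which a TGA codon is read as selenocysteine at the catalytic centre and not as a stop. The codons annotated as selenocysteine in GENCODE M21 (mm10) are given in capitals with 12 bases before and 6 bases after them.
Gpx1, codon at chr9:108339451-108339453, + strand: gtcgcgtctctcTGAggcacc
Gpx3, codon at chr11:54907256-54907258, + strand: gtagccagctacTGAggtctg
Gpx4, codon at chr10:80054737-80054739, + strand: gtggcctcgcaaTGAggcaaa
Txnrd1, codon at chr10:82896037-82896039, + strand: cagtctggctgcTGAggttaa
Txnrd2, codon at chr16:18477772-18477774, + strand: gtgactggttgcTGAggctaa
Txnrd3, codon at chr6:89674789-89674791, + strand: cagaaaggctgcTGAggctag
In the 3 thioredoxin reductase genes the stop codon is the second codon after it, so selenocysteine is the last but one residue. In the 3 peroxidase genes no stop codon lies at that place.

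The library totals lay between 14625725 and 15422309 counts, and the 38 members together took 1.11% and 1.11% of the counts in the Prl2 knockout libraries, against 1.11% and 1.24% in the wild type libraries. The targeted gene Ptp4a2 had 89 and 104 counts in the knockout, against 4884 and 5105 in the wild type (log2 fold change −5.72, SE 0.143, with edgeR's quasi-likelihood test at an adjusted p of 0.000429). Without either knockout library the value lay at −5.61 or −5.84, with adjusted p = 0.113 and 0.0832. Wild type library 1 stands apart by its sex-linked genes: Xist had 3 and 12 counts in the knockout libraries, against 11147 and 9 in wild type libraries 1 and 2, and Ddx3y had 1320 and 1173 in the knockout, against 12 and 1271 in the wild type. Of 5 hepatocyte markers none is in the table, while all 11 neutrophil markers are, with summed levels of 17008 and 14912 CPM (counts scaled to the library total with TMM factors) in the knockout, against 14900 and 24182 CPM in the wild type. For 5 of 11 erythroid markers that are in the table, the summed level was 4.84 and 8.78 CPM in the knockout, against 27.3 and 14.8 CPM in the wild type, without overlap. The beta-globin gene Hbb-bs had 1.05 and 0.925 CPM in the knockout, against 7.76 and 4.18 CPM in the wild type. For 5 of 10 monocyte and macrophage markers the summed level was 934 and 1225 CPM in the knockout, against 560.1 and 607 CPM in the wild type. That sum is carried by Vcam1 and Adgre1, while Csf1r stood at a log2 fold change of −0.50, and the 5 genes divide into 3 positive and 2 negative. For 6 of 8 eosinophil and mast cell markers the sum was 2163 and 2770.1 CPM in the knockout, against 1417 and 786 CPM in the wild type, carried by Prg2 (1.46), with 3 positive and 3 negative genes. The part of these cell type markers in the results below was not tested, and in bulk RNA fewer cells of a type and less RNA per cell cannot be told apart.

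The antioxidant list as a whole sat at nearly the same level in both genotypes. In edgeR's quasi-likelihood test no member reached the threshold of 0.05 after adjustment: 0 of 38 were called higher in the Prl2 knockout (0% of all genes tested) and 0 of 38 lower (0.00735% of all genes, which is Ptp4a2 alone). At an unadjusted p under 0.05, 1 member was higher in the knockout, Txnrd1 (5.66% of all genes), and 2 were lower, Mgst2 and Txn2 (4.23% of all genes). The log2 fold change of the knockout over the wild type was positive for 17 members (49.1% of all genes) and negative for 21 (55.3% of the members and 50.9% of all genes), and its median was −0.027, against −0.0059 for all genes. Both knockout libraries lay above both wild type libraries for 5 members (22.2% of all genes) and below both for 8 (21.9% of all genes). Those 13 are 34.2% of the members, against 44.2% of all genes, so separation of the genotypes was no more common in the list than elsewhere.

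**Figure D1:**
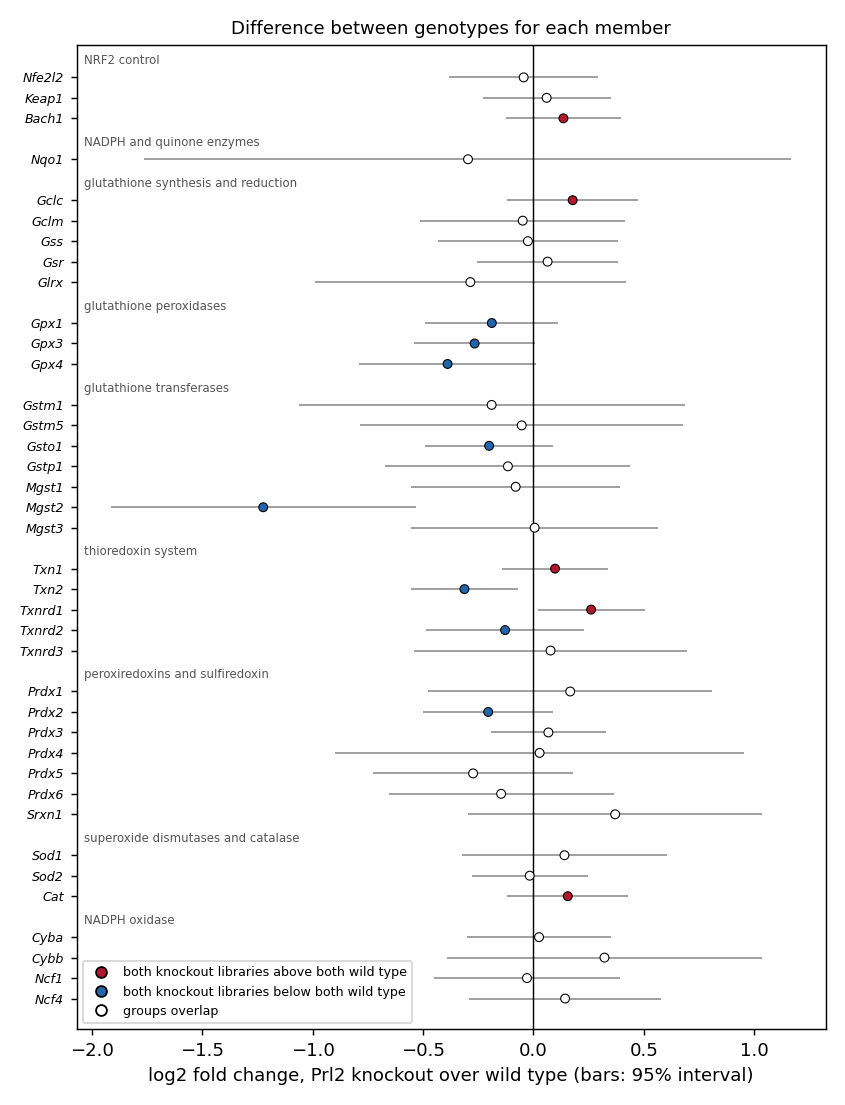
Log2 fold change of the Prl2 knockout over the wild type for each of the 38 members, grouped by role, with 95% intervals from edgeR's quasi-likelihood fit. Apart from Mgst2, Txn2 and Txnrd1 every interval crosses 0, and Mgst2 has the largest fold change at −1.22.

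Other tests on the same counts named 1 member. Mgst2 was called lower in the Prl2 knockout by edgeR's likelihood ratio test (adjusted p = 0.0398, with 0.294% of all genes called lower) and by DESeq2 (adjusted p = 0.0168, with 0.338% called lower), while limma-voom called no member. The authors' deposited comparison is not separate support, as its Mgst2 values and its counts of genes called equal those of the likelihood ratio test. In it, Mgst2 is the 1 member at an adjusted p of 0.05 or less, with a log2 fold change of −1.22 and an adjusted p of 0.0398. Of its genes, 0.294% are listed as lower.

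Per unit of gene length the list spans a wide range of expression, and the order is led by peroxide-handling and oxidase genes. Levels are in RPKM, CPM per kilobase of deposited gene length, as means over the 4 libraries. Gpx1 stood first at 2136 RPKM, followed by the oxidase subunit Cyba at 806 RPKM, Prdx5 at 465 RPKM and the glutathione reductase gene Gsr at 379 RPKM. The oxidase subunits Ncf1 (334 RPKM) and Ncf4 (246 RPKM) enclosed thioredoxin 1 (Txn1, 253 RPKM), and the ranges over the 4 libraries overlapped between Prdx5 and Gsr, Gsr and Ncf1, and Txn1 and Ncf4, but not between the other neighbours named here. Nqo1 stood last at 0.686 RPKM. The median member had 28.0 RPKM, against 6.45 RPKM for all genes of the table.

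**Figure D2:**
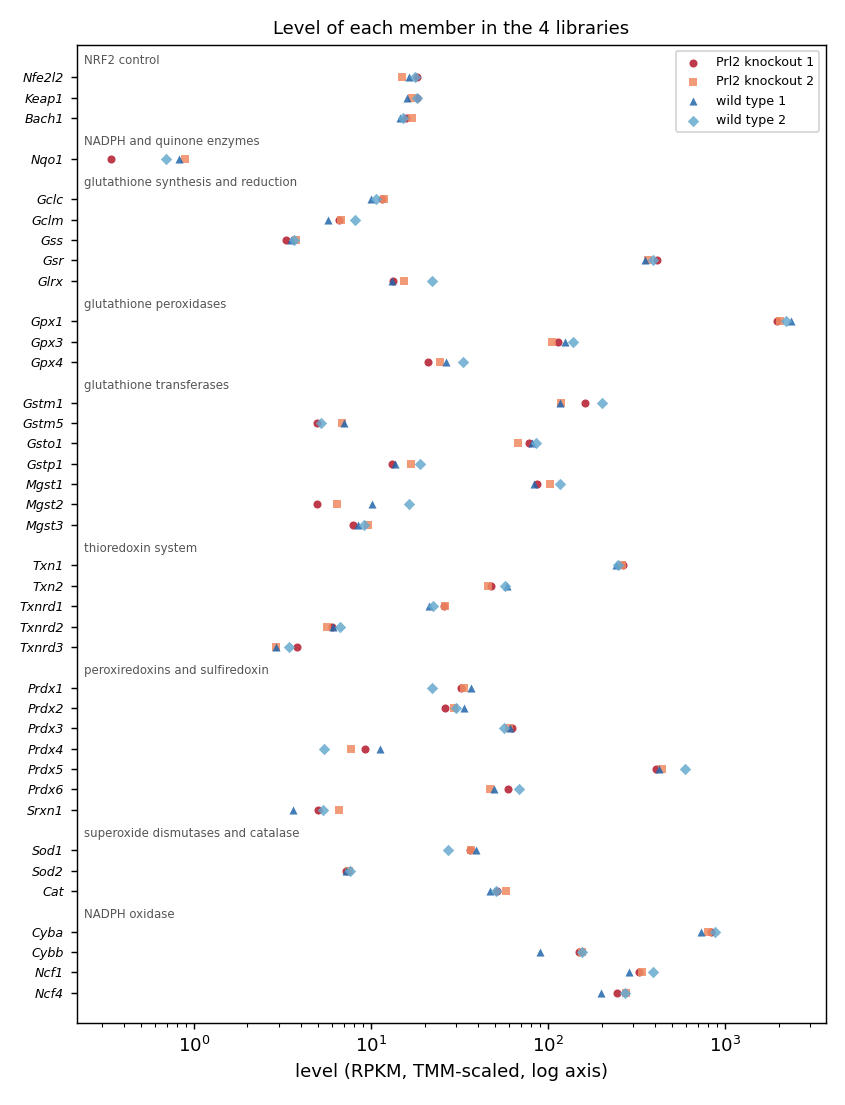
Level of each of the 38 members in RPKM (TMM-scaled, log axis) in the 2 Prl2 knockout and 2 wild type libraries, grouped by role. Gpx1 is the highest and Nqo1 the lowest, and for most members the 4 points lie close together.

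The NRF2 control genes showed small differences. Nfe2l2, which encodes NRF2, had 68.4 and 56.9 CPM in the Prl2 knockout, against 62.1 and 67.1 CPM in the wild type, and the groups overlap (log2 fold change −0.04, SE 0.136, adjusted p = 0.933 from edgeR's quasi-likelihood fit). Keap1, the sensor that marks NRF2 for degradation, had 85.5 and 80.2 CPM in the knockout, against 74.4 and 84.5 CPM in the wild type (0.06, SE 0.117), again with overlap. Bach1, the repressor at NRF2 sites, had 96.6 and 104.7 CPM in the knockout, against 89.7 and 93.4 CPM in the wild type. Both knockout libraries were the higher ones for Bach1, and the log2 fold change was 0.14 (SE 0.105, adjusted p = 0.681).

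Nqo1, a quinone reductase often used as a readout of NRF2 activity, was close to the limit of the table. It had 8 and 21 counts in the Prl2 knockout, against 19 and 16 counts in the wild type. The knockout libraries held both the lowest and the highest value, and the log2 fold change of −0.30 had an SE of 0.593, so a difference was not detectable at this depth.

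Among the genes of glutathione synthesis and reduction, 2 of 5 had a positive and 3 a negative log2 fold change, and none passed the test. The split was 1 and 4 without wild type library 1, and 5 and 0 without wild type library 2. Gclc, the catalytic subunit of glutamate-cysteine ligase, had 43.2 and 44.6 CPM in the Prl2 knockout, against 37.7 and 39.9 CPM in the wild type, without overlap (0.18, SE 0.120). Its modifier subunit Gclm had 41.4 and 42.2 CPM in the knockout, which lie between the 35.8 and 50.6 CPM of the wild type (−0.05, SE 0.187). Gsr, which reduces oxidised glutathione with NADPH and is the most abundant of these genes per length, had 1136 and 999.8 CPM in the knockout, against 962.9 and 1080.2 CPM in the wild type. These overlap, with a log2 fold change of 0.06 (SE 0.130). Glrx, a glutaredoxin that removes glutathione from protein thiols, had 73.3 and 84.3 CPM in the knockout, against 71.8 and 120 CPM in the wild type. Wild type library 2 alone was high for Glrx, and the log2 fold change of −0.29 had an SE of 0.268. Gss, glutathione synthetase, was nearly level at −0.03 (SE 0.164).

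All 3 glutathione peroxidases lay lower in both Prl2 knockout libraries than in both wild type libraries, and none passed the test. Gpx1, the abundant cytosolic peroxidase, had 43103 and 44435 counts in the knockout, against 50838 and 46899 counts in the wild type (log2 fold change −0.19, SE 0.122, adjusted p = 0.627 from edgeR's quasi-likelihood fit). Gpx3, the secreted form, had 204 and 189 CPM in the knockout, against 224 and 249.5 CPM in the wild type (−0.27, SE 0.111, unadjusted p = 0.0557, adjusted p = 0.515). Gpx4, which reduces lipid peroxides in membranes and is known for holding back ferroptosis, had 36.2 and 42.1 CPM in the knockout, against 45.6 and 57.0 CPM in the wild type (−0.39, SE 0.162, unadjusted p = 0.0551, adjusted p = 0.515). For these genes the knockout was the lower genotype without overlap, a pattern that 21.9% of all genes share.

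Gene length and a near copy were looked at for these genes, and the part of either in the values was not tested. The 3 peroxidase genes are short, with a median of 1724 bases against 3930 for all genes, and once a smooth trend on length was taken out of every library the log2 fold changes were −0.07 for Gpx1, −0.16 for Gpx3 and −0.29 for Gpx4. Without wild type library 2, Gpx4 stood at −0.22. The processed pseudogene Gpx4-ps2 (chr10:45875291-45876086, mm10) is 99.7% identical to Gpx4 transcripts over 762 bases, so the assignment of reads between them is uncertain. It had 531 and 551 counts in the Prl2 knockout, against 694 and 860 in the wild type (−0.55, SE 0.151, unadjusted p = 0.0114, adjusted p = 0.474 in the same edgeR fit). Summed with Gpx4 (chr10:80047166-80056439), the level was 71.0 and 78.5 CPM in the knockout, against 92.0 and 115 CPM in the wild type, so the sum has the same order of libraries as Gpx4 alone. The summed erythroid markers given above were also lower in both knockout libraries, and their part in these values was not tested.

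Of the 7 glutathione transferases measured, 6 had a negative log2 fold change and 1 a positive one, with a median of −0.12. These genes are short too, with a median of 1548 bases, and once the trend on length was removed 4 were negative and 3 positive. Without wild type library 2, or without knockout library 1, 3 were negative and 4 positive. Mgst2, a microsomal transferase that also conjugates glutathione to leukotriene A4, had 18.3 and 23.6 CPM in the Prl2 knockout, against 37.5 and 60.4 CPM in the wild type. Its means were 20.9 ± 3.81 CPM in the knockout and 49.0 ± 16.2 CPM in the wild type (SD, n = 2 each). Every knockout value lay below every wild type value, and the wild type libraries also lay far apart from each other. The log2 fold change was −1.22 (SE 0.273, 95% interval −1.92 to −0.53), with an unadjusted p of 0.00572 and an adjusted p of 0.474 in edgeR's quasi-likelihood test. It was −1.54 without wild type library 1 and −0.85 without wild type library 2, so the size depends on which wild type library is used while the direction did not. Mgst2 (ENSMUSG00000074604.9) lies on mm10 at chr3:51660360-51682677.

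The other transferases separated the genotypes less. Gstm1, the most abundant of them per length and a cytosolic mu-class enzyme, had 236 and 173 CPM in the Prl2 knockout, against 171 and 296 CPM in the wild type. Each genotype held 1 high and 1 low library, and the log2 fold change of −0.19 had an SE of 0.322. Gsto1, an omega-class enzyme, had 158 and 135.5 CPM in the knockout, against 164 and 173 CPM in the wild type, without overlap (−0.20, SE 0.117). Mgst1, Gstp1, Gstm5 and Mgst3 overlapped between genotypes, with log2 fold changes between −0.12 and 0.01.

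**Figure D3:**
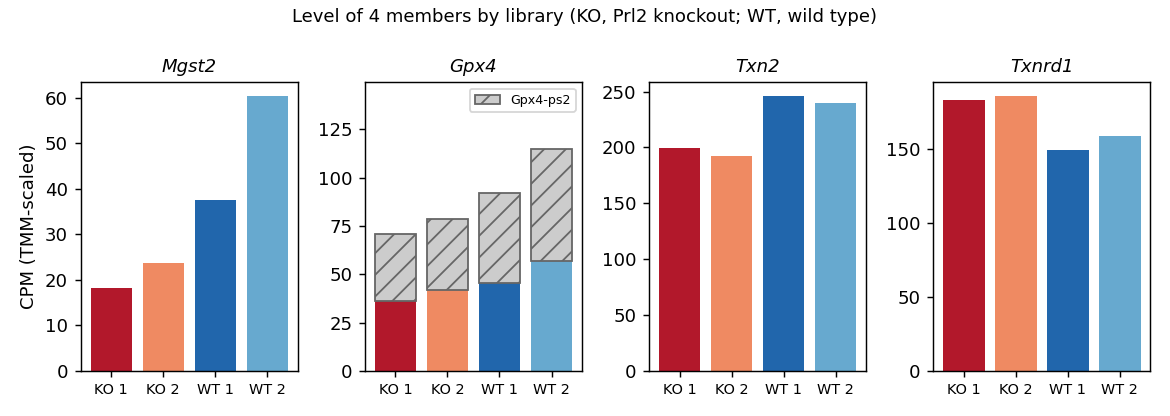
CPM (TMM-scaled, axes from 0) of Mgst2, Gpx4, Txn2 and Txnrd1 in the 2 Prl2 knockout (KO) and 2 wild type (WT) libraries, with the near copy Gpx4-ps2 stacked in grey on Gpx4. Both knockout bars are lower for the first 3 genes and higher for Txnrd1.

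The cytosolic and mitochondrial arms of the thioredoxin system lay on opposite sides, although no gene of it passed the adjusted threshold. Txnrd1, the cytosolic thioredoxin reductase and a textbook NRF2 target, had 183 and 185.5 CPM in the Prl2 knockout, against 149 and 158 CPM in the wild type. Its partner Txn1 had 277 and 273 CPM in the knockout, against 254 and 259.8 CPM in the wild type. Both knockout libraries were the higher ones for both genes, with log2 fold changes of 0.26 for Txnrd1 (SE 0.098, 95% interval 0.02 to 0.50, unadjusted p = 0.0390, adjusted p = 0.494 in the edgeR fit) and 0.10 for Txn1 (SE 0.097). Once the trend on gene length was removed, Txnrd1 stood at 0.20 with an unadjusted p of 0.126 and Txn1 at 0.23, and the likelihood ratio test gave Txnrd1 an unadjusted p of 0.118. In the mitochondrial arm, Txn2, mitochondrial thioredoxin, had 199 and 192 CPM in the knockout, against 246 and 239.8 CPM in the wild type. Its reductase Txnrd2 had 26.4 and 24.9 CPM in the knockout, against 26.8 and 29.3 CPM in the wild type. For this pair both knockout libraries were the lower ones, with log2 fold changes of −0.31 for Txn2 (SE 0.0975, 95% interval −0.55 to −0.07, unadjusted p = 0.0197, adjusted p = 0.474 in the same fit) and −0.13 for Txnrd2 (SE 0.145). The difference between the arms was not tested. Of all genes, 22.2% lay higher in both knockout libraries than in both wild type libraries, and 21.9% lay lower. The quasi-likelihood test gave Txn1 and Txnrd2 unadjusted p-values of 0.353 and 0.411, and the likelihood ratio test gave Txn2 0.0594. Txnrd3, a reductase best known from testis, overlapped between genotypes at 10.7 and 8.26 CPM in the knockout, against 8.23 and 9.77 CPM in the wild type. Among the 6 selenoproteins, whose codons are printed above, Txnrd1 and Txnrd3 thus had positive and Gpx1, Gpx3, Gpx4 and Txnrd2 negative log2 fold changes.

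Peroxiredoxins reduce hydrogen peroxide through a cysteine that, in most of them, thioredoxin regenerates, and here 3 of 6 had a positive and 3 a negative log2 fold change. Prdx5, the most abundant of them per length, had 865 and 937 CPM in the Prl2 knockout, against 907 and 1272 CPM in the wild type. The single high library was wild type library 2, and the log2 fold change of −0.27 (SE 0.183) shrank to −0.014 without it. Prdx2 had 79.2 and 89.2 CPM in the knockout, against 102 and 91.9 CPM in the wild type, and is the 1 peroxiredoxin whose groups do not overlap (−0.21, SE 0.119). Prdx3, the mitochondrial form, stood at 0.07 (SE 0.106), and Prdx1, Prdx4 and Prdx6 stood between −0.15 and 0.17 with SEs of 0.202 to 0.365. Srxn1, which reactivates over-oxidised peroxiredoxins and holds the searched motif in its promoter, had 14.1 and 18.4 CPM in the knockout, against 10.2 and 15.0 CPM in the wild type. Its knockout and wild type values overlap, and its log2 fold change was 0.37, the largest positive value of the list with all 4 libraries, with an SE of 0.269 and an adjusted p of 0.663 in edgeR's quasi-likelihood fit. It lay at 0.11 without wild type library 1 and 0.67 without wild type library 2. Without knockout library 1 it lay at 0.55, and without knockout library 2 at 0.17. With either wild type library or knockout library 2 left out, another member was the highest.

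Superoxide dismutases turn superoxide into hydrogen peroxide, which catalase breaks down. Cat, catalase, had 134 and 149.98 CPM in the Prl2 knockout, against 123 and 132 CPM in the wild type. The knockout libraries were the higher ones without overlap, with a log2 fold change of 0.16 (SE 0.111, adjusted p = 0.653 from edgeR's quasi-likelihood fit). The cytosolic enzyme gene Sod1 had 144 and 145.1 CPM in the knockout, between the 155.0 and 107 CPM of the wild type (0.14, SE 0.185). Sod2, the mitochondrial enzyme, had 71.7 and 74.6 CPM in the knockout, against 72.0 and 76.0 CPM in the wild type (−0.02, SE 0.106).

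The NADPH oxidase members, which make superoxide in phagocytes, overlapped between genotypes in all 4 cases. Cybb, the catalytic gp91phox subunit on the X chromosome, had 869.7 and 902 CPM in the Prl2 knockout, against 519 and 899 CPM in the wild type. Wild type library 1 alone was low, the library that also differs in Xist and Ddx3y. For Cybb the log2 fold change was 0.32 (SE 0.274), and −0.03 without that library. The X-linked member Prdx4 was highest in that library, with 19.5 and 16.2 CPM in the knockout, against 23.5 and 11.4 CPM in the wild type. The part of X linkage was not tested. Cyba, the p22phox partner, had 863 and 826 CPM in the knockout, against 756 and 904 CPM in the wild type, and the knockout values lie within the wild type range (0.03, SE 0.131). The cytosolic subunits had log2 fold changes of −0.03 for Ncf1 (SE 0.170) and 0.14 for Ncf4 (SE 0.176). For all 4 subunits wild type library 2 was above wild type library 1, and the neutrophil markers summed above had that order too. In the knockout the neutrophil sum was higher in library 1, as was Cyba, while Cybb, Ncf1 and Ncf4 were higher in library 2. The part of the neutrophil markers was not tested.

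The members with the searched motif in their promoter did not share a direction. Srxn1 (0.37), Txnrd1 (0.26), Prdx1 (0.17) and Sod1 (0.14) had positive log2 fold changes, while Nfe2l2 (−0.04), Gclm (−0.05), Gstm5 (−0.05) and Mgst1 (−0.08) had negative ones. Of these 8, 6 changed sign when 1 library was left out, and Srxn1 and Txnrd1 did not.

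Much of the variation in the list lay between the wild type libraries. Wild type library 2 was above wild type library 1 for 29 of 38 members, against 50% of all genes (6809 of 13614). The median deviation from a gene's mean over the 4 libraries was −0.0027 and −0.00057 log2 units in the Prl2 knockout, against −0.081 and 0.086 in the wild type. In 25 of 38 members the wild type libraries differed from each other by more than the genotypes did, against 55.0% of all genes. The knockout libraries did so in 20 of 38 (49.4% of all genes), and the wild type gap exceeded the knockout gap in 26 of 38 (55.6% of all genes). Over the members, the median size of the genotype difference was 0.145 log2 units, with 0.162 between the knockout libraries and 0.229 between the wild type libraries. The median log2 fold change was −0.094 without wild type library 1 and 0.081 without wild type library 2, so the sign of the list's median depended on which wild type library was used. It was 0.0067 once the trend on gene length was removed, with 20 members positive and 18 negative.

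**Figure D4:**
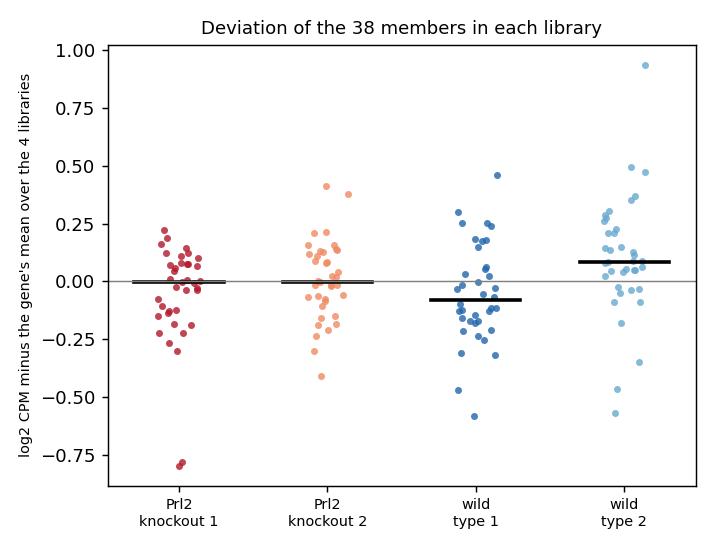
Deviation of each of the 38 members from its mean over the 4 libraries (log2 CPM units, 1 point per member, black line at the median) in Prl2 knockout and wild type libraries. The knockout medians sit near 0, while wild type library 1 lies at −0.081 and wild type library 2 at 0.086.

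**Figure D5:**
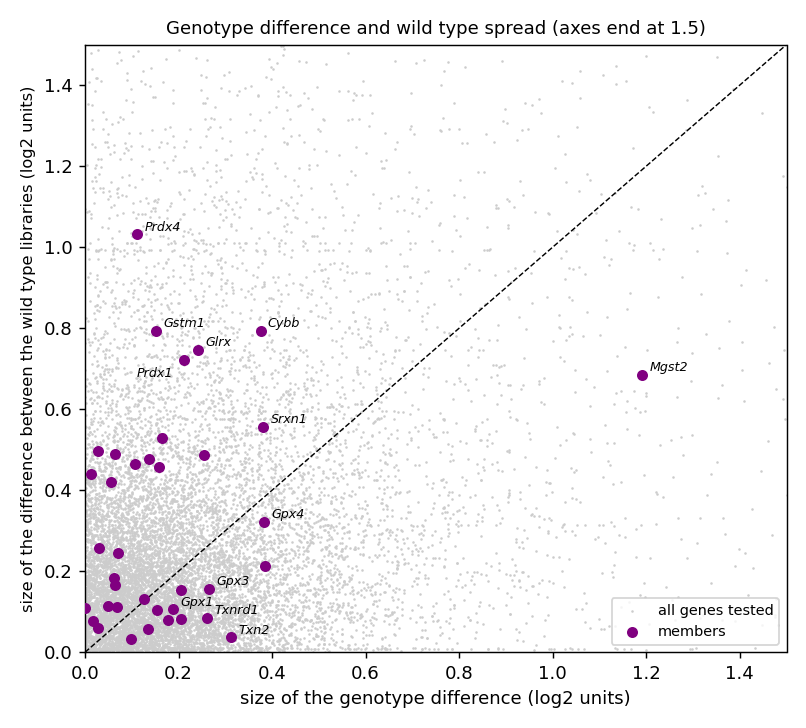
Size of the genotype difference (horizontal axis) against the size of the difference between the 2 wild type libraries (vertical axis), both in log2 units and shown up to 1.5, for the members (purple) and all genes tested (grey). The dashed line marks equal sizes, and 25 of 38 members lie above it.

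Other genes of the same pathways were read from 4 lists that share no gene with the members, and no gene of them passed the adjusted threshold in edgeR's quasi-likelihood test. Of 30 further NRF2 targets and partners, 28 were measured, 12 with a positive and 16 with a negative log2 fold change (median −0.012), and at an unadjusted p under 0.05 there were 3 higher and 1 lower (5.66% and 4.23% of all genes). Without knockout library 1 the split was 17 positive and 11 negative. G6pdx, which makes NADPH for both reducing systems, had 505 and 490.6 CPM in the Prl2 knockout, against 266 and 395 CPM in the wild type (0.59, SE 0.199, unadjusted p = 0.0280, adjusted p = 0.487). It is X-linked, and wild type library 1 was its lowest. X-linked Pir of the same list was highest there, with 1.77 and 2.58 CPM in the knockout, against 3.14 and 1.75 CPM in the wild type. Without wild type library 1, G6pdx stood at 0.32 and Abcc4 at 0.36. The multidrug exporter Abcc4 had 115.1 and 115.4 CPM in the knockout, against 65.9 and 89.0 CPM in the wild type (0.57, SE 0.161, unadjusted p = 0.0129), and its relative Abcc1 stood at 0.29 (SE 0.102, unadjusted p = 0.0317). Rbx1, a subunit of the ligase that KEAP1 serves, had 57.2 and 53.2 CPM in the knockout, against 73.1 and 66.5 CPM in the wild type (−0.34, SE 0.118, unadjusted p = 0.0299).

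Further glutathione genes were measured for 20 of 33, with 5 positive and 15 negative log2 fold changes and a median of −0.18. The negative share was 75% of those measured, against 50.9% of all genes, and without wild type library 2 the split was 8 positive and 12 negative. Glrx5, a mitochondrial glutaredoxin of iron-sulphur cluster assembly, was the 1 gene of that list at an unadjusted p under 0.05, with 56.6 and 56.4 CPM in the Prl2 knockout, against 94.2 and 69.8 CPM in the wild type (−0.54, SE 0.165, unadjusted p = 0.0185). Both knockout libraries were nearly equal and below both wild type libraries, and the value was −0.32 without wild type library 1. Of all genes, 4.23% were lower at an unadjusted p under 0.05, and 21.9% lay below both wild type libraries in both knockout libraries. Of 39 other thioredoxin and selenoprotein genes, 37 were measured, 11 positive and 26 negative (70.3%, against 50.9% of all genes, median −0.11). At an unadjusted p under 0.05, 0 were higher and 2 lower (5.66% and 4.23% of all genes). Selenos, a selenoprotein of the endoplasmic reticulum, stood at −0.30 (SE 0.105, unadjusted p = 0.0305), or −0.19 with the length trend removed, and Park7, which encodes the redox-sensitive protein DJ-1, at −0.28 (SE 0.109, unadjusted p = 0.0446). Among 14 other oxidase-related genes 8 were measured, 5 positive and 3 negative (median 0.12). At an unadjusted p under 0.05 there were 0, against 5.66% of all genes higher and 4.23% lower. Mpo, the myeloperoxidase of neutrophil granules, had 1189 and 561 CPM in the knockout, against 1193 and 3009 CPM in the wild type, a spread that gave its log2 fold change of −1.26 an SE of 0.661.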

How the data were processed

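The authors deposited 1 table of whole-number read counts per gene with a gene length, and per the file headers their own genotype comparison stands beside it, as log2 fold changes with raw and adjusted p-values. The tools named in the submitters' processing notes are featureCounts, STAR and Bowtie2, with mm10 as the genome; for versions, roles and strand setting, the sources used here give nothing. Each of the 13614 genes has a CPM above 0.5 in at least 2 libraries, so low genes were not analysed here. Columns were assigned through the short names that the labels hold, and the 2 libraries of each genotype differed beyond sampling noise.

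Testing of the deposited counts used edgeR 4.0.16 under R 4.3.3 (TMM factors, filterByExpr, robust quasi-likelihood test, two-sided, Benjamini-Hochberg over all 13614 genes, called at an adjusted p of 0.05 or less), with genotype as the single term. filterByExpr kept all genes. Standard errors are the log2 fold change over the root of F. Values in every library were given for NRF2 control genes, for members passing a test or an unadjusted p of 0.05, and for the most abundant and the most different member of each role group; other members were added after their values were seen. Alternatives were the likelihood ratio test, DESeq2 1.42.0, voom of limma 3.58.1, other scalings and filters, a gene length correction, replicate blocks and leaving out each library. Members, lists and cell type markers were chosen with earlier results of these data known. Near copies were transcript matches of at least 95% identity over at least 100 bases. The fit was tested on simulated data.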

Additional observations from a re-analysis of the deposited data

How the results depend on the processing

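With 2 libraries per genotype, only differences well beyond the replicate spread could be called. No member was called by edgeR's quasi-likelihood test under any scaling, filter, length correction or left-out library. The likelihood ratio test and DESeq2 each called 1 member lower, Mgst2. Leaving out 1 library at a time moved the number of positive members between 11 and 24 and the median log2 fold change between −0.094 and 0.081. It moved Ptp4a2 between −5.84 and −5.61, with adjusted p from 0.000304 to 0.113. The direction of 22 of 38 members changed in at least 1 of these fits. Among the 18 members of the naming rule the ranges crossed 0 for Nfe2l2 (−0.18 to 0.083), Keap1 (−0.041 to 0.15), Nqo1 (−1.15 to 0.24), Gsr (−0.031 to 0.15), Glrx (−0.62 to 0.13), Gstm1 (−0.54 to 0.26), Cyba (−0.11 to 0.15) and Cybb (−0.032 to 0.77), and the cause was not tested. Under the other settings none of the 179 values of those 18 members reversed, while 5 of the remaining members did so under at least 1 setting: Gstm5, Mgst1 and Ncf1 with the length trend removed, Prdx4 with library totals, and Mgst3 with library totals, voom or the stricter filter. For 16 of 38 members the sign was the same in every alternative, 7 positive and 9 negative.

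The labels state no pairing of the libraries, and the deviations of same-numbered libraries had a correlation of −0.142 over genes. With 2 libraries per genotype this value cannot exclude a pairing. With a replicate block 17 members were positive, the median was −0.022 and 0 were called. With the crossed pairing, added after seeing the data, 0 members and 1 gene were called.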

Other observations

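Several members share sequence with a pseudogene that is also in the table, and reads could be split between them. At 95% identity over 100 bases or more, 17 members had such a match to another gene, in 16 cases to a gene of the table. Gm8566, a copy of Sod1 (97.8% identity), had 333 and 363 counts in the Prl2 knockout, against 376 and 270 in the wild type. As for Sod1 itself, both knockout values lie between the wild type values. Gstm2-ps1, which matches Gstm1 (97.9% identity), had 252 and 189 counts in the knockout, against 178 and 280 in the wild type, the same order of libraries as Gstm1. Gm21399, a copy of Prdx1 (98.3% identity), had 117 and 81 counts in the knockout, against 106 and 76 in the wild type. Prdx1 itself had 1497 and 1537 counts in the knockout, against 1654 and 996 in the wild type, a different order of libraries.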
